A study of Mus musculus with 18 samples.

Results

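The IRAK kinases and the adaptors of the Toll-like receptors (TLRs) were examined as 10 named genes, *Irak1*, *Irak2*, *Irak3*, *Irak4*, *Myd88*, *Tirap*, *Ticam1*, *Ticam2*, *Traf6* and *Sarm1*, in activated mouse eosinophils. They were chosen by name, through the Ensembl identifier of each symbol, and all 10 were present among the 55029 genes of the *E. coli* and IFN-γ files and the 54232 genes of the IL-4 files. Of these, 8 had enough counts to be tested in both kinds of file, and *Ticam2* and *Sarm1* did not.

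TLRs and the receptors of the IL-1 family share a cytoplasmic TIR domain. On binding of a microbial product or cytokine, this domain recruits Myd88, for some TLRs through the bridging adaptor Tirap, and Myd88 assembles Irak4 with Irak1 or Irak2, after which the ubiquitin ligase Traf6 passes the signal to the TAK1 and IKK kinases and to NF-κB. Irak3, also called IRAK-M, lacks effective kinase activity and is known in macrophages as an inducible brake on this pathway, whereas Ticam1 (TRIF) and Ticam2 (TRAM) serve a separate branch that leads to type I interferon.

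Eosinophils came from the peritoneal cavity of *Il5* transgenic mice of the C57BL/6 background (line NJ.1638), in which excess IL-5 expands this lineage, and were enriched by removing cells that carried Thy1.2 or B220. The cells were left unstimulated or were cultured for 18 h with IL-4 (100 ng/ml), IFN-γ (50 ng/ml), heat-inactivated *E. coli*, or IFN-γ + *E. coli*. The study compared type 1 with type 2 activation of these cells. For the genes described here, the question is which step of TLR signaling changes with a bacterial stimulus, an interferon or a type 2 cytokine. The age of the mice is not given in the sources used here.

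RNA was counted with CEL-Seq2, which reads the 3′ ends of transcripts, in 18 libraries. Each stimulus had 3 libraries, unstimulated libraries a to c shared the file layout of the *E. coli*, IFN-γ and IFN-γ + *E. coli* libraries, and unstimulated libraries d to f shared that of the IL-4 libraries. The reference for each stimulus was therefore the unstimulated cells whose files have the same layout, and the 3 stimuli of the first layout share theirs. Total gene counts ranged from 1523808 to 2734041 in the 12 libraries of the first layout and from 3625036 to 6482289 in the 6 libraries of the second. Levels are given in CPM, the counts of a gene scaled by the normalised total of its library, and are not corrected for gene length. A level of 3 counts, taken as the floor of detection, equalled 1.00 to 2.19 CPM in the first layout and 0.497 to 0.833 CPM in the second, and this floor covers counting error only. A difference is called where edgeR's quasi-likelihood test gives a p under 0.05 after Benjamini-Hochberg adjustment over all genes tested. The study calls replicates biological, but whether they came from separate animals or cultures is not given in the sources used here, so these p-values measure only the spread between these libraries.

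The highest count of any gene was 4089 to 4095 in each library of the first layout and 87377 to 191131 in the second, so every count of the first layout was under 4096, and the counts of its most abundant genes may be too low. The highest count of any IRAK or adaptor gene was 1193, for *Irak3* with *E. coli*. A ceiling may lower such counts too, by a smaller share. A correction for it is among the alternatives given at the end, over which *Irak3* kept its direction. Among replicate pairs, unstimulated library e stood apart from d and f. Its chi-square per gene was 23.7 with d, against 7.86 between d and f. At lower values, *E. coli* replicate 3 stood apart from 1 and 2 (3.76 and 4.60, against 1.64 between these). Replicate 3 of the combination did so too (6.04 and 5.02 against 2.66), as did unstimulated library b (4.58 and 4.50 against 2.49). The IRAK and adaptor calls that changed without these libraries are given with each gene or comparison. The calls with IL-4 that changed without library e are given after those of the pathway lists and with the cell markers.

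With *E. coli*, 3 of the 8 tested IRAK and adaptor genes were called, all higher (*Irak3*, *Irak2* and *Tirap*), where 30.2% of all 9883 tested genes were called, 13.5% higher and 16.7% lower. IFN-γ gave 4 calls, with *Irak3*, *Irak2* and *Traf6* higher and *Irak4* lower, where 31.6% of all tested genes were called, 15.6% higher and 16.0% lower. IFN-γ + *E. coli* gave 5 calls, with *Irak3*, *Irak2*, *Tirap* and *Traf6* higher and *Irak4* lower, where 49.0% of all genes were called, 23.9% higher and 25.2% lower. IL-4 gave 0 calls with edgeR and 0 with DESeq2, and 1 of the 8 genes had an unadjusted p under 0.05, where 10.3% of 10556 tested genes were called. With 8 tested genes that were chosen with results known, these counts are a description, and the results below are about single genes. The median log2 fold change of the 8 genes was 0.33 for *E. coli*, 0.08 for IFN-γ, 0.32 for the combination of both and -0.01 for IL-4, beside medians over all tested genes of -0.02, -0.03, -0.04 and 0.00.

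*Irak3* (ENSMUSG00000020227, minus strand of chromosome 10 at 120141648 to 120202130, GRCm38), the inhibitory member, had levels of 67.8, 69.7 and 78.5 CPM in unstimulated libraries a to c. The *E. coli* libraries had 416, 399 and 391 CPM. The IFN-γ libraries had 123, 133 and 150 CPM, and the IFN-γ + *E. coli* libraries had 673, 589 and 667 CPM. The 4 groups did not overlap, and their order from unstimulated through IFN-γ and *E. coli* to the combination held for every library. *Irak3* rose 5.57-fold with *E. coli* (log2 fold change 2.48, SE 0.12, adjusted p = 2.91e-11). IFN-γ alone raised it 1.87-fold (log2 0.91, SE 0.12, adjusted p = 1.11e-05). With IFN-γ + *E. coli* it rose 8.91-fold (log2 3.16, SE 0.12, adjusted p = 4.92e-13). All 3 stimulated libraries of each of these groups lay above all 3 unstimulated ones.

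Every pair of neighbours in that order was also separated by its own test. *Irak3* was higher with *E. coli* than with IFN-γ (log2 difference 1.57, SE 0.11, adjusted p = 3.17e-09), and higher with the combination than with *E. coli* alone (0.68, SE 0.10, adjusted p = 5.37e-05). Against IFN-γ alone, the combination was higher by a log2 difference of 2.25 (SE 0.11, adjusted p = 1.86e-10). The interaction, which asks whether the combination departs from the sum of the separate log2 changes, was -0.23 for *Irak3* (SE 0.16, adjusted p = 0.521) and did not pass the test.

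With IL-4, *Irak3* had 52.7, 40.0 and 45.6 CPM, beside 56.1, 57.5 and 57.6 CPM in unstimulated libraries d to f. All 3 IL-4 libraries lay below all 3 unstimulated ones, yet the difference did not pass the test (log2 -0.31, SE 0.15, adjusted p = 0.227). The change of *Irak3* with IL-4 differed from its change with IFN-γ + *E. coli* by -3.52 on the log2 scale (SE 0.17, adjusted p = 2.72e-12). A test of this kind compares each stimulus with its own unstimulated libraries and then compares the changes.

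**Figure D1:**
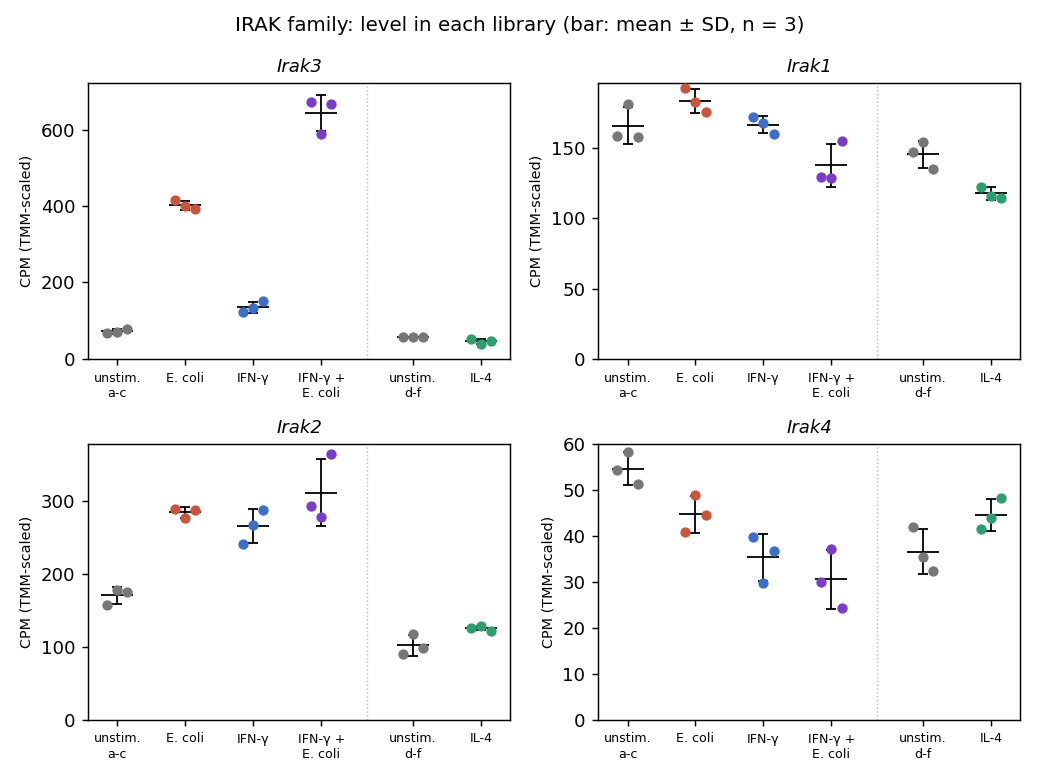
Level in CPM of *Irak3*, *Irak1*, *Irak2* and *Irak4* in each of the 18 libraries (points), with bars for the group mean and error bars for the SD (n = 3), and a dotted line between the libraries of the 2 file layouts. *Irak3* averaged 72.0 CPM in unstimulated libraries a to c and 643 CPM with IFN-γ + *E. coli*, while *Irak4* averaged 54.6 and 30.5 CPM.

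*Irak4* (ENSMUSG00000059883, plus strand of chromosome 15 at 94543643 to 94581815), the kinase that binds Myd88 first and is needed to activate the others, moved the opposite way to *Irak3*. It had 54.4, 58.3 and 51.2 CPM in unstimulated libraries a to c. The IFN-γ libraries had 39.7, 29.7 and 36.6 CPM, and the IFN-γ + *E. coli* libraries had 29.9, 37.3 and 24.4 CPM. Both groups lay wholly below the unstimulated libraries and overlapped each other. *Irak4* fell with IFN-γ (log2 -0.63, SE 0.16, adjusted p = 0.00686) and with IFN-γ + *E. coli* (log2 -0.82, SE 0.17, adjusted p = 5.58e-04). Without IFN-γ replicate 2 the first of these had an adjusted p of 0.0630, the highest over its 14 alternatives, of which the lowest was 0.00457. With *E. coli* alone the libraries had 40.8, 48.8 and 44.4 CPM, below every unstimulated library, but the difference did not pass the test (log2 -0.28, SE 0.15, adjusted p = 0.181). With IL-4 they had 41.5, 43.9 and 48.2 CPM, overlapping the 41.9, 35.5 and 32.3 CPM of unstimulated libraries d to f (log2 0.29, SE 0.16, adjusted p = 0.283).

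*Irak2* (ENSMUSG00000060477, plus strand of chromosome 6 at 113638467 to 113695026) is a kinase of the Myd88 complex that sustains its later signaling. Unstimulated libraries a to c had 158, 178 and 176 CPM. It had 289, 276 and 288 CPM with *E. coli*, 242, 267 and 288 CPM with IFN-γ, and 293, 278 and 365 CPM with the combination. The 3 stimulated groups overlapped one another and lay wholly above the unstimulated libraries. *Irak2* rose 1.67-fold with *E. coli* (log2 0.74, SE 0.12, adjusted p = 8.18e-05), 1.56-fold with IFN-γ (log2 0.64, SE 0.12, adjusted p = 3.79e-04) and 1.83-fold with IFN-γ + *E. coli* (log2 0.87, SE 0.12, adjusted p = 6.57e-06). None of the 3 differences among these stimuli was called for *Irak2*. The IL-4 libraries had 126, 128 and 122 CPM, all above the 89.7, 118 and 99.1 CPM of unstimulated libraries d to f (log2 0.29, SE 0.13, adjusted p = 0.206). Without unstimulated library e, this value was 0.41 with an adjusted p of 0.0258, the lowest over 12 alternatives, of which the highest was 0.495.

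*Irak1* (ENSMUSG00000031392, minus strand of chromosome X at 74013914 to 74023918), the kinase that Irak4 phosphorylates and that then recruits Traf6, was not called against unstimulated cells with any stimulus. Unstimulated libraries a to c had 158, 181 and 158 CPM of it, overlapping the 193, 183 and 176 CPM of the *E. coli* libraries (log2 0.15, SE 0.11, adjusted p = 0.306). With IFN-γ it had 172, 168 and 160 CPM, and with IFN-γ + *E. coli* 129, 129 and 155 CPM. The combination lay just below every unstimulated library, at the edge of the threshold (log2 -0.27, SE 0.11, adjusted p = 0.0542). It passed without IFN-γ + *E. coli* replicate 3 (adjusted p = 0.0224), with at least 10 counts required in every library (0.0142) and with all unstimulated libraries as 1 group (0.0294), and the 14 alternatives ranged from 0.0142 to 0.223. Against *E. coli* alone, the combination had lower *Irak1* (log2 -0.42, SE 0.11, adjusted p = 0.00647). The IL-4 libraries had 123, 116 and 114 CPM, all below the 147, 154 and 135 CPM of unstimulated libraries d to f, with log2 -0.31 and an adjusted p of 0.134.

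The balance between the inhibitory kinase and the activating kinases was followed in each library as the log2 CPM of *Irak3* minus the mean log2 CPM of *Irak1*, *Irak2* and *Irak4*. Counts of different genes are not on a common scale, so the change of this ratio between groups is read, and not its sign. The ratio was -0.70, -0.82 and -0.52 in unstimulated libraries a to c. It was 1.65, 1.55 and 1.57 with *E. coli*, 0.05, 0.26 and 0.33 with IFN-γ, and 2.67, 2.40 and 2.56 with the combination. No group overlapped another among these 12 libraries. The group means lay above the unstimulated mean by 2.27 log2 units for *E. coli*, 0.89 for IFN-γ and 3.22 for the combination. For IL-4 the ratio was -0.71, -1.11 and -0.94, beside -0.55, -0.59 and -0.39 in unstimulated libraries d to f, a shift of -0.41 with no overlap, or of -0.45 without library e. No p is given, since the ratio is a score over genes chosen with results known. With *Irak4* alone as the activating kinase, the shift with IFN-γ was 1.52.

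**Figure D2:**
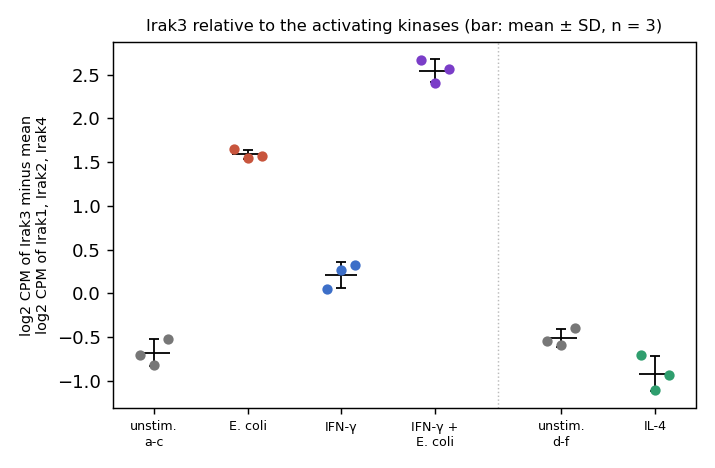
Log2 CPM of *Irak3* minus the mean log2 CPM of *Irak1*, *Irak2* and *Irak4* in each of the 18 libraries (points), with the mean and SD of each group (n = 3). The ratio averaged -0.68 in unstimulated libraries a to c, 0.21 with IFN-γ, 1.59 with *E. coli* and 2.55 with the combination, and it averaged -0.51 in unstimulated libraries d to f and -0.92 with IL-4.

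*Myd88* (ENSMUSG00000032508, minus strand of chromosome 9 at 119335934 to 119341411), the adaptor shared by most TLRs and the IL-1 receptor family, was not called with any stimulus. Its level was 158, 175 and 160 CPM in unstimulated libraries a to c, beside 206, 180 and 211 CPM with *E. coli*. The *E. coli* libraries lay above the unstimulated ones, and the difference fell just short of the threshold (log2 0.28, SE 0.10, adjusted p = 0.0502). It passed with DESeq2 size factors (adjusted p = 0.0448), without unstimulated library b (0.0303), without *E. coli* replicate 2 (0.0364), with a fit to the compared libraries alone (0.0384) and with counts corrected for a ceiling (0.0434), within a range of 0.0303 to 0.575 over 14 alternatives. *Myd88* averaged 173 ± 10.1 CPM with IFN-γ and 178 ± 8.45 CPM with the combination (SD, n = 3), both groups overlapping the unstimulated libraries. With IL-4 it averaged 166 ± 19.6 CPM beside 158 ± 7.08 CPM in unstimulated libraries d to f, and these also overlapped.

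*Tirap* (ENSMUSG00000032041, minus strand of chromosome 9 at 35184551 to 35200291), which bridges Myd88 to TLR2 and TLR4 at the membrane, had 52.2, 48.2 and 48.3 CPM in unstimulated libraries a to c. It had 73.8, 60.5 and 61.2 CPM with *E. coli* and 82.5, 61.4 and 67.3 CPM with IFN-γ + *E. coli*. Both groups lay above every unstimulated library, and IFN-γ alone, with 47.6, 58.9 and 50.4 CPM, overlapped them. The log2 change with IFN-γ was 0.08, and it reached 0.57 over 14 alternatives without a call (lowest adjusted p = 0.138). *Tirap* rose with *E. coli* (log2 0.39, SE 0.14, adjusted p = 0.0439) and with the combination (log2 0.49, SE 0.15, adjusted p = 0.00930). With all unstimulated libraries as 1 group, these values were larger, 0.87 with *E. coli* and 1.02 with the combination. That group adds libraries d to f of the other file layout, where *Tirap* averaged 17.7 CPM, against 49.5 CPM in a to c. The first of these calls was lost with DESeq2 (adjusted p = 0.0774), with no filter on low counts (0.0510), with at least 10 counts required in every library (0.0615) and when *E. coli* replicate 1 was left out (0.188). Leaving out unstimulated library a, b or c, or *E. coli* replicate 2, also ended it (adjusted p of 0.0741, 0.0762, 0.105 and 0.0519), and over 14 alternatives the adjusted p ran from 0.0238 to 0.188. *Tirap* averaged 17.7 ± 4.08 CPM in unstimulated libraries d to f and 21.1 ± 1.97 CPM with IL-4 (SD, n = 3), with overlap.

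*Traf6* (ENSMUSG00000027164, plus strand of chromosome 2 at 101678429 to 101701669), the ubiquitin ligase below the IRAK kinases, had 35.0, 32.3 and 41.7 CPM in unstimulated libraries a to c. It had 42.5, 58.4 and 66.7 CPM with IFN-γ and 70.1, 77.8 and 71.9 CPM with IFN-γ + *E. coli*. The combination libraries were the highest of the 12 for this gene, and IFN-γ replicate 1 lay close to unstimulated library c. *Traf6* rose 2.00-fold with the combination (log2 1.00, SE 0.19, adjusted p = 1.90e-04) and 1.52-fold with IFN-γ (log2 0.60, SE 0.19, adjusted p = 0.0198). The IFN-γ call was lost without unstimulated library a or b (adjusted p = 0.0749 and 0.0527), without IFN-γ replicate 2 or 3 (0.0522 and 0.0920), and with all unstimulated libraries as 1 group (0.336), and its 14 alternatives began at 0.00369. With *E. coli* alone the libraries had 55.9, 50.5 and 35.1 CPM, overlapping the unstimulated ones (log2 0.38, SE 0.18, adjusted p = 0.135). Without *E. coli* replicate 3, the lowest of these, the log2 change was 0.54 and its adjusted p 0.0284, the lowest of 14 alternatives that reached 0.894. The IL-4 libraries had 32.7, 36.1 and 33.4 CPM beside 40.8, 51.7 and 33.4 CPM in unstimulated libraries d to f (log2 -0.30, SE 0.18, adjusted p = 0.328).

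**Figure D3:**
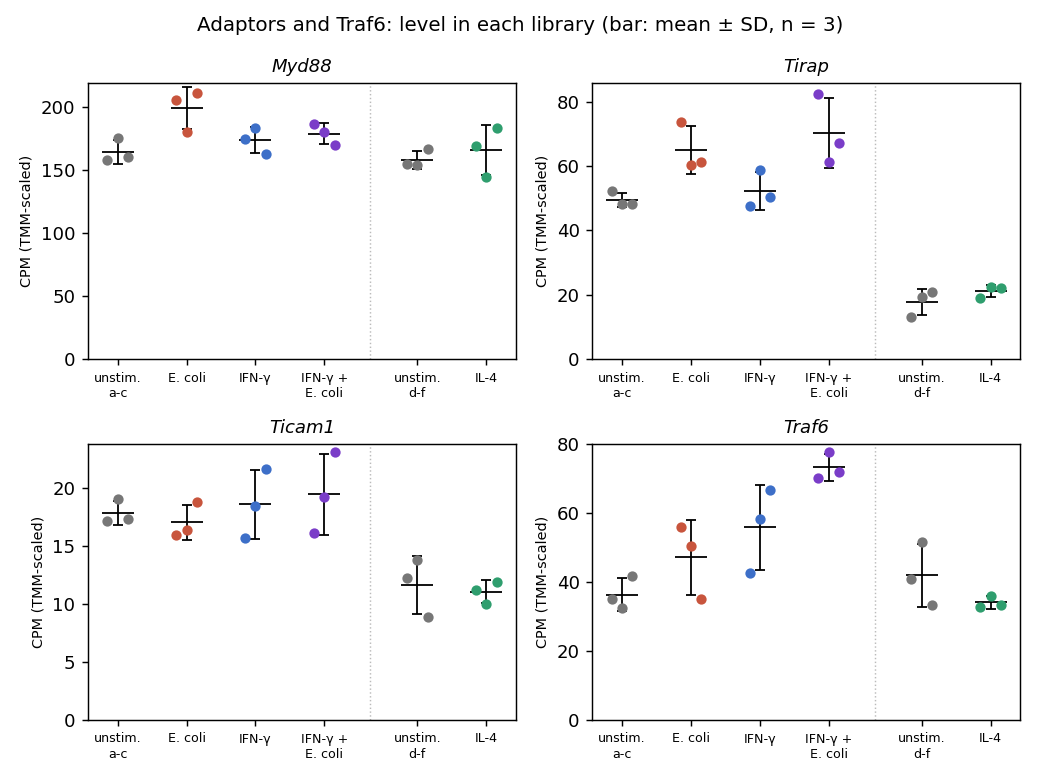
Level in CPM of *Myd88*, *Tirap*, *Ticam1* and *Traf6* in each of the 18 libraries (points), with bars for the group mean and error bars for the SD (n = 3). *Traf6* averaged 36.4 CPM in unstimulated libraries a to c and 73.3 CPM with IFN-γ + *E. coli*, while *Ticam1* averaged 17.8 and 19.4 CPM.

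*Ticam1* (ENSMUSG00000047123, minus strand of chromosome 17 at 56269319 to 56276786), the adaptor of the branch to type I interferon, stayed between 15.7 and 23.1 CPM in all 12 libraries of the first layout, and between 8.87 and 13.7 CPM in the 6 of the second. Its groups overlapped in each comparison with unstimulated cells, and the log2 changes were -0.07 with *E. coli*, 0.06 with IFN-γ, 0.14 with the combination and -0.08 with IL-4. *Ticam2* (ENSMUSG00000056130), the bridging adaptor that brings Ticam1 to TLR4, had 0 to 19 counts, or 0 to 5.64 CPM, and was too low to test. Its IFN-γ libraries (3.36 to 5.64 CPM) lay above unstimulated libraries a to c (1.90 to 2.48 CPM), at counts of 6 to 11 against 3 to 6. *Sarm1* (ENSMUSG00000050132, minus strand of chromosome 11 at 78472330 to 78497754), a TIR protein known from axon degeneration, had at most 1 count in any library and was not detectable at this depth.

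Between stimulated groups, IFN-γ + *E. coli* against IFN-γ gave 1 call, *Irak3*, where 6.25% of all tested genes were called higher, and *E. coli* against IFN-γ likewise gave 1, *Irak3*, where 11.5% were called higher. Adding IFN-γ to *E. coli* gave 4 calls, with *Irak3* and *Traf6* higher and *Irak1* and *Irak4* lower, where 32.8% of genes were called, 17.5% higher and 15.3% lower. For *Traf6* the log2 difference was 0.63 (SE 0.18, adjusted p = 0.0108) and for *Irak4* -0.54 (SE 0.17, adjusted p = 0.0207). The *Irak4* call was lost without *E. coli* replicate 2 (adjusted p = 0.0894) and without replicate 1 or 3 of the combination (0.0574 and 0.0979), and the lowest over 14 alternatives was 0.00921. Without replicate 3 of the combination, *Irak1* was also called against IFN-γ alone (log2 -0.38, adjusted p = 0.0425, in a range up to 0.324).

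The interaction of IFN-γ and *E. coli* gave 0 calls among the 8 genes with edgeR and 0 with DESeq2, where 4.62% of all genes were called, and 2 genes had an unadjusted p under 0.05. These were *Irak1* (-0.43, SE 0.15, adjusted p = 0.134) and *Irak2* (-0.51, SE 0.16, adjusted p = 0.0889). Without replicate 3 of the combination both were called, *Irak1* at -0.56 (adjusted p = 0.0395) and *Irak2* at -0.67 (adjusted p = 0.0134). Over 18 alternatives the adjusted p reached 0.274 for *Irak1* and 0.222 for *Irak2*. The change with IL-4 differed from the change with the combination for 4 of the 8 genes, *Irak4* higher and *Irak2*, *Irak3* and *Traf6* lower, where 39.2% of 10671 genes were called, 18.5% higher and 20.7% lower.

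Several of these genes share exon bases with a neighbour, and the sources used here do not state whether counting used the strand. Counting in the union mode of HTSeq, which the study's methods name, sets aside reads that overlap both genes, and such reads made up 1.84% to 2.27% of all counts in the first layout. Without strand, a read from an antisense neighbour that lies outside that neighbour's annotated exons cannot be told apart from one of the gene itself. *Irak3* shares 192 exon bases with *Tmbim4* on the opposite strand. *Tmbim4* had means of 170, 245, 355 and 563 CPM in the unstimulated, *E. coli*, IFN-γ and combination libraries, and it rose in all 3 comparisons (log2 0.54, 1.07 and 1.74). *Irak3* also rose in all 3, and was higher with *E. coli* than with IFN-γ. The part of *Tmbim4* in the *Irak3* counts was not tested. *Irak4* shares 395 exon bases with *Twf1*, which rose with IFN-γ (log2 0.50) and the combination (0.70), opposite to *Irak4*. *Myd88* shares 290 with *Acaa1a*, which fell with *E. coli* (log2 -1.01), IFN-γ (-0.82) and the combination (-0.82). *Tirap* shares 39 with *Srpr*, which rose in the same comparisons (0.50, 0.42 and 0.67), and 446 with the antisense gene *Gm39318*, which had 0 counts. *Ticam2* shares 838 with *Tmed7* on its own strand, which averaged 111 CPM in unstimulated libraries a to c and rose with IFN-γ (log2 0.37, adjusted p = 0.0349), the stimulus with which the *Ticam2* libraries lay above these. Changes of *Tmed7* with *E. coli* (0.24) and the combination (0.24) were not called. *Irak2* shares 196 with *Gm43963*, which had at most 1 count in the first layout and up to 32 with IL-4. The part of these neighbours in the levels of the IRAK and adaptor genes was not tested.

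Over the 12 libraries of the first layout, the level of *Irak3* was compared with that of 7922 tested genes of at least 10 CPM on average. The genes with the most similar pattern were *Nfkbiz*, a NF-κB cofactor (Pearson r 0.9904), *Cldnd1* (0.9886), *Plaur*, the urokinase receptor (0.9863), the cytokine *Il1a* (0.9856) and *M6pr* (0.9831). *Nfkbiz* had means of 21.1, 110, 38.8 and 181 CPM in the unstimulated, *E. coli*, IFN-γ and combination libraries, ordered as those of *Irak3* were. Among the other IRAK and adaptor genes, r with *Irak3* was 0.8539 for *Irak2*, 0.8485 for *Tirap*, 0.6777 for *Traf6*, 0.561 for *Myd88*, 0.1094 for *Ticam1*, -0.3385 for *Irak1* and -0.6083 for *Irak4*. For *Irak2* the most similar genes were *Lrrc8d* (0.9734), *Kpna1* (0.9729), *Bcl3* (0.9722), *Eif1ax* (0.9714) and *Ap3s1* (0.9709). For *Myd88* they were *Eif5a* (0.906), *Timm17a* (0.8482), *Rbms1* (0.8442), *Jpt2* (0.8395) and *Smarce1* (0.8378). These values describe libraries that fall into 4 groups, so a shared response to the stimuli is enough to raise r, and no p is given.

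The promoters of *Irak3* and *Irak2*, the genes of this family that rose together with all 3 stimuli of the first layout, are shown from RefSeq (GRCm38.p6, 250 bases before to 50 after a transcript start). *Ticam2* was left out of the promoter search by name, and the RefSeq promoters of the other 9 of the 10 genes were used. Each was searched on both strands for the letters GGGNNNNNCC (a loose κB motif, in 50.8% of 32851 promoters of the same length), TTCNNNGAA (a GAS motif, 8.3%), TTCNNNNGAA (a STAT6 motif, 6.95%) and GAAANNGAAA (an ISRE motif, 3.44%). The *Irak3* promoter at chr10:120201548-120201847 (minus strand) held 4 κB matches. They start at bases 225, 226, 261 and 262, so each overlaps its neighbour on the other strand, in 2 marked stretches. The upstream promoter at chr10:120202081-120202380 (minus strand) held 0. That of *Irak2* at chr6:113638217-113638516 (plus strand) held 1. None of these held a GAS, STAT6 or ISRE match. The κB letters also stood in promoters of other members, with 2 matches in each of the 2 *Irak1* promoters and 4 and 2 in those of *Tirap*. *Traf6* and *Sarm1* had 2 each, *Irak4* and *Ticam1* 1 each, and *Myd88* 0, with 1 GAS and 1 ISRE match. The 2 matches in each promoter of *Irak1*, *Sarm1* and *Traf6* overlap each other, as do the last 2 of the *Tirap* promoter with 4. Capitals mark the κB matches, which are a description of letters and not of bound sites.
Irak3 promoter 1: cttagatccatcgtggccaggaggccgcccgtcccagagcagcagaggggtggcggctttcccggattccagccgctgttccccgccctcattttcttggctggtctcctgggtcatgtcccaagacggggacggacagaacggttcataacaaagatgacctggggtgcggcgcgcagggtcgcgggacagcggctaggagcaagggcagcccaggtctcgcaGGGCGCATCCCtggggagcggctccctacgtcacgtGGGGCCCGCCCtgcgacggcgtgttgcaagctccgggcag
Irak3 promoter 2: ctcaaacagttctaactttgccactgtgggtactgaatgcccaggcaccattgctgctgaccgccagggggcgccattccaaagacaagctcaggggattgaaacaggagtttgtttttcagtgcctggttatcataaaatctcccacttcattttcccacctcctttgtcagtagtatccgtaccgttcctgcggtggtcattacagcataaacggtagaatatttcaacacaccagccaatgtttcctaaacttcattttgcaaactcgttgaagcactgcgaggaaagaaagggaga
Irak2 promoter: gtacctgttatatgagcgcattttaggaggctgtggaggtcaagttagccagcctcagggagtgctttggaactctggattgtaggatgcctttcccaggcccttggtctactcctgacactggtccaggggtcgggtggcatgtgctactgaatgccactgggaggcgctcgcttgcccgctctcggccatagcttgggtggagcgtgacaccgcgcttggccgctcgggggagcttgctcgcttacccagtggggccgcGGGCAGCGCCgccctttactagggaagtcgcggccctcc

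The counts in the pathway lists below stand beside shares over all tested genes of 13.5% higher and 16.7% lower with *E. coli*, 15.6% and 16.0% with IFN-γ, and 23.9% and 25.2% with the combination, and of 10.3% called with IL-4. Downstream of Traf6, 9 genes of the TAK1, TPL2 and Pellino step were tested. With *E. coli* 2 rose, *Tnip2* (log2 0.96) and *Ube2n* (0.63), and with IFN-γ 3 rose, *Peli1* (0.58), *Ube2n* (0.55) and *Tab2* (0.34). The combination raised 7, where 23.9% of all genes rose, led by *Tnip2* (1.07), the ubiquitin ligase *Peli1* (0.91) and *Tab3* (0.90), and none fell with these stimuli. IL-4 gave 0 calls with edgeR and 0 with DESeq2, with 1 gene at an unadjusted p under 0.05. The medians were 0.25, 0.38, 0.82 and 0.04 for *E. coli*, IFN-γ, the combination and IL-4. *Traf6* itself was called with IFN-γ and the combination.

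Of 8 genes of the IKK complex and NF-κB, 4 rose with *E. coli*, namely *Nfkb2* (log2 0.94), *Chuk* (0.52), *Rel* (0.48) and *Relb* (0.47). With IFN-γ 4 rose, *Ikbkg* (0.85), *Nfkb2* (0.74), *Rel* (0.64) and *Relb* (0.53), and *Nfkb1* fell (-0.31). With the combination 7 rose, again beside 23.9% of all genes, led by *Nfkb2* (1.74), *Rel* (1.09) and *Ikbkg* (0.97). With IL-4, *Rel* (0.73) and *Nfkb1* (0.64) rose and *Ikbkg* fell (-1.09). The list medians were 0.39, 0.48, 0.70 and -0.01.

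In the TRIF branch, below *Ticam1*, 12 genes were tested. With *E. coli*, *Ripk3*, a kinase of necroptosis, rose (log2 1.39) and *Irf7* fell (-0.44), and with IFN-γ *Ripk3* (0.69), *Tbk1* (0.50) and *Ripk1* (0.39) rose. The combination raised *Ripk3* (1.32), *Tbk1* (0.85), *Ripk1* (0.47) and *Azi2* (0.33) and lowered *Fadd* (-0.85). With IL-4, edgeR and DESeq2 each called 0, and 0 had an unadjusted p under 0.05. The medians were -0.11, 0.10, 0.09 and 0.01.

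Other inhibitors of the pathway, 18 of which were tested, were set beside *Irak3*. With *E. coli* 8 rose and 1 fell, led by the RNase *Zc3h12a* (log2 1.56), *Tnfaip3*, which encodes the deubiquitinase A20 (1.15), and *Tnip1* (1.07), with the phosphatase *Dusp1* lower (-1.49). With IFN-γ 6 rose, led by *Socs1* (1.34), *Tnfaip3* (1.20) and *Nfkbib* (0.60), and *Dusp1* fell (-0.94). With the combination 10 rose, led by *Tnfaip3* (2.31), *Zc3h12a* (1.65) and *Traf1* (1.58), and *Dusp1* fell (-0.78). With IL-4, *Socs1* (1.52), *Nfkbia* (1.02), *Tnfaip3* (0.58) and *Usp18* (0.51) rose and *Dusp1* fell (-0.93), while *Irak3* was not called. The list medians were 0.29, 0.28, 0.84 and 0.12, and the log2 change of *Irak3* was 2.48, 0.91, 3.16 and -0.31.

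Of 13 tested TIR receptors and co-receptors above Myd88, 4 rose with *E. coli*, *Il18rap* (2.83-fold), *Cd14* (log2 0.77), *Tlr4* (0.75) and *Il1rl1* (0.32), and *Tlr7* (-1.58) and *Unc93b1* (-0.92) fell. With IFN-γ 5 rose, *Tlr6* (2.01), *Il18rap* (0.92), *Tlr13* (0.90), *Cd14* (0.78) and *Unc93b1* (0.59), and *Il1rap* (-1.41) and *Tlr2* (-1.29) fell. The combination raised *Tlr6* (2.04), *Cd14* (1.71), *Il18rap* (1.51) and *Tlr1* (0.92) and lowered *Tlr7* (-1.81) and *Il1rap* (-1.46). With IL-4, *Il1rap* rose (1.47) and *Tlr13* (-1.14), *Tlr6* (-0.96) and *Tlr2* (-0.79) fell. The medians were -0.07, 0.11, -0.12 and -0.31. Too low to test were *Tlr5*, *Tlr8*, *Tlr9*, *Tlr11*, *Tlr12*, *Il1r1* and *Il18r1*.

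Of 13 early targets of the pathway tested in the first layout, 9 rose with *E. coli*, led by *Il1b* (log2 3.32), *Ptgs2* (3.08) and *Il6* (2.94). With IFN-γ 11 rose, led by *Il12b*, which was at least 5.61-fold higher, since its unstimulated libraries were at the floor, *Ptgs2* (2.66) and *Icam1* (1.58). All 13 rose with the combination, led by *Il12b* (at least 12.8-fold higher), *Ptgs2* (5.01) and *Il6* (4.62). Of 11 tested with IL-4, *Il6* (2.24), *Ptgs2* (1.04), *Nfkbia* (1.02), *Il1b* (0.87) and *Tnfaip3* (0.58) rose and *Tnf* fell (-1.12). The medians were 1.92, 0.96, 3.07 and 0.03, and the first was 2.14 when *Il12b*, at the floor in both groups, was left out. *Nfkbia* and *Tnfaip3* stand in both this list and that of the inhibitors.

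Without unstimulated library e, a choice made after it was seen to stand apart, 12.8% of all tested genes were called with IL-4, and some calls were gained. Among the IRAK and adaptor genes this was *Irak2*, as given above, and the log2 change of *Traf6* went from -0.30 to -0.12 (adjusted p = 0.722). *Tollip* fell among the inhibitors (log2 -0.61, adjusted p = 0.0141), *Cd14* among the receptors (-0.33, adjusted p = 0.0379), and *Cxcl2* (-0.91) and *Cxcl1* (-0.78) among the early targets. No call was lost in these lists, and the calls of the other pathway lists were the same genes. The difference between the changes with IL-4 and with the combination was called for the same 4 genes, at -3.52 for *Irak3*, -1.18 for *Traf6*, -0.52 for *Irak2* and 1.03 for *Irak4*.

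Markers of other cells of the peritoneal cavity were followed, since they may carry these transcripts too. The study checked eosinophil purity by flow cytometry and describes the cells that remained beside them as mostly lymphocytes. Fewer cells of a type cannot be told apart from less RNA per cell in such bulk libraries. The 8 eosinophil markers summed to 2703 ± 357 CPM in unstimulated libraries a to c, 2133 ± 107 with *E. coli*, 2410 ± 247 with IFN-γ, 2027 ± 122 with the combination, 3085 ± 502 in unstimulated libraries d to f and 2714 ± 69.6 with IL-4 (SD, n = 3). In the first layout these sums are limited by the ceiling of counts, since *Ccr3*, the most abundant of the markers in every library, had 2258 to 3576 counts there. With counts corrected for a ceiling, a choice made after seeing the data, the sum was 3359 ± 150 CPM in unstimulated cells, 2761 ± 260 CPM after *E. coli*, 2773 ± 261 CPM after IFN-γ and 2181 ± 108 CPM for the combination (SD, n = 3). *Ccr3* was called in none of these 3 comparisons (log2 -0.13, 0.17 and 0.10), and *Epx*, the gene of eosinophil peroxidase, was at 0 in 5 libraries. Of the 5 that could be tested in the first layout, *Ear6* rose with *E. coli* (log2 1.29) and the combination (0.52) and fell with IFN-γ (-0.93), *Siglecf* (-0.68, -0.70 and -1.55) and *Il5ra* (-1.35, -0.37 and -1.28) fell with *E. coli*, IFN-γ and the combination, and *Prg2* fell with IFN-γ (-0.81) and the combination (-1.13), and these calls held with the corrected counts. With IL-4, 4 of 8 rose, *Ear6* (1.34), *Prg2* (0.83), *Il5ra* (0.60) and *Siglecf* (0.39), and *Ccr3* fell (-0.72). All 10 macrophage markers had counts in every library, *Gata6* as few as 2, which is under the floor, and were led in the first layout by *Adgre1*, which eosinophils also express. They summed to 1849, 1953 and 1965 CPM in unstimulated libraries a to c, 1742, 1567 and 2148 with *E. coli*, 2450, 2375 and 2607 with IFN-γ, and 2164, 2081 and 2590 with the combination. These sums overlapped between unstimulated and *E. coli* libraries, where *Irak3* rose 5.57-fold, and were higher in all libraries of the other stimuli. The single markers differed from the sum. With *E. coli* 4 of 10 fell, *Timd4* (log2 -1.62), *Vsig4* (-1.44), *Cd68* (-1.09) and *Icam2* (-0.73). With IFN-γ *C1qb* (1.04), *Adgre1* (0.42) and *Csf1r* (0.31) rose and *Gata6* (-1.76) fell, and with the combination *C1qb* rose (0.85) and *Icam2* (-0.70) and *Cd68* (-0.55) fell. With the corrected counts *Adgre1* was called higher with *E. coli* (0.35, adjusted p = 0.0472), *Gata6* was no longer called with IFN-γ (adjusted p = 0.0518), and the other calls of macrophage markers held. With IL-4 the macrophage sum was 2329, 2316 and 2601 CPM beside 2820, 3336 and 3473 CPM in unstimulated libraries d to f, led by *C1qc* or *C1qb*, and was lower in every IL-4 library, as the *Irak3* level was. Here *Adgre1* (-0.80), *Vsig4* (-0.75), *Cd68* (-0.71), *Csf1r* (-0.68) and *C1qb* (-0.51) fell, while *Gata6* (0.62, adjusted p = 0.106), *Timd4* (0.53, adjusted p = 0.0856) and *Icam2* (0.44, adjusted p = 0.0841) lay above unstimulated cells without a call. Without library e, *Icam2* was called higher (0.53, adjusted p = 0.0222). The part of macrophages in the *Irak3* levels was not tested.

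The 6 neutrophil markers summed to 42.5, 34.2 and 44.6 CPM in unstimulated libraries a to c, 158, 130 and 213 with *E. coli*, 71.1, 67.7 and 79.8 with IFN-γ, and 70.8, 82.7 and 111 with the combination. The sums lay above the unstimulated ones with each of these 3 stimuli, as *Irak3* and *Irak2* did, but unlike *Irak3* they were highest with *E. coli* alone. Of the 3 markers tested, *S100a8* rose with all 3 (log2 3.06, 2.20 and 2.71), *Ly6g* rose with IFN-γ (2.27) and the combination (1.63), and *Cxcr2* rose with *E. coli* (1.73) and fell with IFN-γ (-1.76) and the combination (-0.73). With IL-4 the sum averaged 48.6 CPM beside 20.6 CPM in its unstimulated libraries, while *Irak3* was lower, and *Cxcr2* rose (3.09) but *S100a8* did not (-0.71, adjusted p = 0.145). The most abundant neutrophil gene was *Cxcr2* or *S100a8*, and *Camp* or *Ngp* was at 0 in some libraries. The part of neutrophils was not tested. The 5 mast cell markers, led by *Tpsb2* in most libraries, summed to 9.69, 8.24 and 7.43 CPM in unstimulated libraries a to c. They summed to 9.79, 6.69 and 34.6 CPM with *E. coli*, with replicate 3 far above the others, 30.2, 14.4 and 13.1 with IFN-γ, and 35.8, 70.1 and 66.6 with the combination. Unstimulated libraries d to f had 8.33, 6.46 and 7.17 CPM and the IL-4 libraries 17.3, 7.81 and 20.5. Of the 2 mast cell genes tested, *Tpsb2* rose with IFN-γ (log2 1.51) and both *Cma1* (3.45) and *Tpsb2* (2.65) rose with the combination, where *Irak3* and *Traf6* rose too, and the part of mast cells was not tested. Of the 3 monocyte markers, *Ly6c2* had 3359 to 4083 counts in the libraries of the first layout, near the ceiling, so the levels as deposited are not read there. With the corrected counts the monocyte sum averaged 7330 ± 821 CPM in unstimulated cells, 3169 ± 470 CPM after *E. coli*, 6706 ± 1562 CPM after IFN-γ and 4335 ± 363 CPM for the combination (SD, n = 3), and *Ly6c2* was called lower after *E. coli* (log2 -1.21, adjusted p = 9.34e-06) and for the combination (-0.76, adjusted p = 4.62e-04), where *Irak3* rose. So close to the ceiling, a few counts move the corrected level strongly, and the part of monocytes was not tested. Of the others, *Fn1* fell with *E. coli* (log2 -1.59), and *Ccr2* rose with IFN-γ (0.87) and the combination (0.83). In the second layout the monocyte sum averaged 23109 CPM in unstimulated libraries d to f and 23635 CPM with IL-4. Nearly all of it was *Ly6c2* (means of 23019 and 23573 CPM), beside 3.95 and 6.06 CPM of *Ccr2* and 86.2 and 55.5 CPM of *Fn1*. The sum thus follows *Ly6c2* and is not read as an amount of monocytes. *Fn1* fell with IL-4 (-0.63). B cell markers averaged 177, 53.9, 73.3 and 128 CPM, then 30.7 and 64.9 CPM, led by *Ighm*. All 5 tested B cell genes fell with *E. coli* (log2 -2.54 to -1.43) and 4 with IFN-γ (-1.42 to -1.22), and 3 of 4 rose with IL-4 (0.90 to 1.76). T cell markers averaged 3.63 to 7.07 CPM and dendritic cell markers 3.59 to 9.31 CPM. NK cell markers averaged 0 to 0.317 CPM, with *Klrb1c* at 0 in every library. The dendritic cell sum was 4.17, 2.82 and 3.78 CPM in unstimulated libraries d to f, and 5.33, 9.64 and 13.0 CPM with IL-4. *Xcr1*, the 1 dendritic cell gene tested there, was called higher (log2 1.34, adjusted p = 0.0420). Without library e no dendritic cell gene was called, and the 1 tested had a log2 change of 1.16.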

How the data were processed

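CEL-Seq2 libraries of purified RNA were made from 18 samples of eosinophils. The authors deposited counts per gene for each library, per the paper's methods made with TopHat2 2.1.0 and HTSeq 0.6.1 on GRCm38. These methods and the submitters' processing notes also name fastp 0.20.1 and STAR 2.7.2a, without saying which libraries that covers, and whether reads were collapsed by molecular identifier or counted by strand is not given in the sources used here. Rows that name no gene held 21.1% to 39.4% of the counts in the 12 libraries of the first layout, 0 in the other files, and were left out.

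Counts were tested in R 4.3.3 with edgeR 4.0.16 (TMM, filterByExpr, quasi-likelihood test, Benjamini-Hochberg adjustment over all tested genes) at an adjusted p of 0.05 with no fold threshold. The SE is the log2 fold change divided by the square root of F, an approximation. The 12 libraries of the first layout were fitted together, the 6 of the second apart, and all 18 together for the difference between the changes. The edgeR test of *E. coli* and of IL-4 against unstimulated libraries was tried on simulated counts, drawn without a ceiling. This covered no other step. The ratio and the likeness used log2 CPM with a prior count of 2. Gene names were matched for 98.3% and 99.7% of the identifiers.

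All 10 genes are described in each comparison. From each pathway list and comparison with unstimulated cells, up to 3 called genes are named in each direction, ranked by log2 fold change, with all genes of a count of 5 or fewer, and the 5 genes most like *Irak3*, *Irak2* and *Myd88*. The members and lists were chosen with earlier results of these data known. Alternatives were DESeq2 1.42.0, its size factors, other filters on low counts, a factor of 2, a replicate block, other sets of libraries, other ratios, each library left out, and a correction for the ceiling of counts.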

Additional observations from a re-analysis of the deposited data

Results flagged for a closer look

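The change with IL-4 and the change with IFN-γ + *E. coli*, each against its own unstimulated libraries, were compared in a test of the difference itself (edgeR, adjusted over all genes tested), and 4 of the 8 tested genes differed, where 39.2% of 10671 genes did. The log2 difference, IL-4 minus the combination, was -3.524 for *Irak3* (adjusted p = 2.72e-12), -1.367 for *Traf6* (adjusted p = 3.26e-04), -0.638 for *Irak2* (adjusted p = 0.00505) and 1.049 for *Irak4* (adjusted p = 8.48e-04). IL-4 and the combination stand in separate file layouts, and a part of the layout in these differences was not tested.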

How the results depend on the processing

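Over the alternatives for each comparison, *Irak3* kept its direction, from 2.43 to 2.64 with *E. coli*, 0.85 to 0.98 with IFN-γ and 3.09 to 3.34 with IFN-γ + *E. coli* (log2), and lost a call only under the factor of 2, with IFN-γ and for the combination against *E. coli*. In all, 977 values kept direction and side of the threshold, 31 were no longer called, 13 became called and 35 changed sign. Correcting counts for a ceiling, chosen after seeing the data, gave 4 called genes with *E. coli*. It turned the log2 change of *Ly6c2*, a marker near the ceiling, to -0.13 with IFN-γ and to a called -0.76 with the combination, gave a called -1.21 with *E. coli* in place of -0.34, and for the combination turned that of *Ccr3* to -0.19 and of *C1qa* to 0.0020. With a factor of 2, the genes called were 1 with *E. coli*, 0 with IFN-γ, 2 with the combination and 0 for the combination against *E. coli*, which the added threshold explains by construction.

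With all unstimulated libraries as 1 group, log2 values changed sign for *Ticam1* with *E. coli* (0.058), *Irak1* (-0.072) and *Myd88* (-0.072) with IFN-γ, *Myd88* with the combination (-0.0043) and *Tirap* with IL-4 (-0.35). With at least 10 counts in every library they did so for *Irak1* with IFN-γ (-0.034), and for *Irak1* (0.063) and *Myd88* (0.043) in the IL-4 change against that of the combination. With no filter, the interaction did so for *Tirap* (-0.048) and *Traf6* (-0.049). The ratio's shifts with *E. coli*, IFN-γ and the combination were 2.07, 0.64 and 2.85 from summed CPM, 2.54, 1.20 and 3.70 with *Irak1* and *Irak4* only, and 2.75, 1.52 and 3.98 with *Irak4* only. The cause was not tested.

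Leaving out each library in turn, the ratio's shift with *E. coli* ran from 2.20 to 2.35. The genes called ran from 2 to 4 with IFN-γ, 1 to 2 for the combination against IFN-γ, 0 to 1 with IL-4 and 0 to 2 for the interaction. The log2 values that changed sign ran, with IFN-γ, from -0.020 to 0.10 for *Irak1* and -0.031 to 0.18 for *Ticam1*. With IL-4 they ran from -0.025 to 0.15 for *Myd88* and -0.25 to 0.075 for *Ticam1*. For the combination against IFN-γ they ran from -0.0029 to 0.069 for *Myd88* and -0.065 to 0.19 for *Ticam1*. Against *E. coli* they ran from -0.0020 to 0.21 for *Irak2* and -0.017 to 0.20 for *Tirap*. The interaction ran from -0.11 to 0.19 for *Irak4*, -0.12 to 0.11 for *Tirap*, -0.022 to 0.23 for *Ticam1* and -0.15 to 0.14 for *Traf6*. The IL-4 change against that of the combination ran from -0.17 to 0.015 for *Irak1*. The cause was not tested.

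Replicate numbers were shared by the *E. coli*, IFN-γ and combination libraries. Same-numbered libraries had correlations of -0.045 to 0.331 between their deviations from the group means. Libraries with different numbers had -0.377 to 0.266. Whether same-numbered libraries share a preparation is not given in the sources used here. These values cannot decide it, since deviations within a group of 3 depend on one another. With the replicate block the genes called were 1 for the combination against IFN-γ, 4 for the combination against *E. coli* and 1 for *E. coli* against IFN-γ, the same counts as without it. *Ticam2* and *Sarm1* were too low to test at the depth of either layout.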
